A study of Mus musculus with 4 samples.

Results

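The transcripts of the proteasome, the cell's main protein-degrading machine, were described in mouse Th17 cells, for which 4 RNA sequencing libraries form 1 group. Th17 cells are CD4+ helper T cells that secrete IL-17. The genes were taken by a symbol rule: every protein-coding gene whose GENCODE mouse symbol starts with Psma, Psmb, Psmc, Psmd, Psme, Psmf or Psmg followed by a number. The rule found 50 genes of the 50600 in the files, of which 21764 were protein-coding. The cells were primary cells of strain C57BL/6NJ, of unknown age and with sex not collected, and no genotype, treatment or control group is named. Names in the file headers include a time of 72 hours and the word sorted. The libraries are numbered as biological replicates 1 to 4, with a biosample each and 1 shared donor label. No label says whether they came from separate animals or cultures, so the tests here measure only the spread between these libraries.

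The proteasome is the barrel-shaped protease that degrades proteins tagged with ubiquitin. Its core particle is built from outer rings of α subunits and inner rings of β subunits. The β1, β2 and β5 subunits (genes Psmb6, Psmb7 and Psmb5) cut peptide bonds. In lymphocytes, and in other cells exposed to interferon, the immune subunits Psmb9, Psmb10 and Psmb8 can take the β1, β2 and β5 positions of newly built cores and alter which peptides are made for MHC class I. A regulatory particle with a base of ATPases and a lid recognises, unfolds and feeds in the substrate. Dedicated chaperones build both particles, and alternative activators such as the PA28 rings can cap the core.

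Totals ran from 9382661 counts in replicate 3 to 34542693 in replicate 1. All 7 Th17 markers, among them Il17a and Cd4, were above 1 TPM in every library, a level per exonic base scaled to the same total in each library. The summed level of 5 B cell markers was 0.241 to 0.686 TPM, that of 5 dendritic cell markers 0.203 to 0.337 TPM and that of 4 NK cell markers 0 to 0.4 TPM. The 5 macrophage markers summed to 4.47 to 8.27 TPM, nearly all of it Cd68, with Cd8b1 at 13.4 ± 1.96 TPM (SD, n = 4) and Cd8a at 0.0288 ± 0.0335 TPM. Of all genes tested, 1 (Xist) had a spread between libraries above the trend over genes by edgeR's test (adjusted p = 0.002227). Genes that differ between libraries only as much as that trend are not called. Xist, the RNA of the inactive X chromosome, had 964, 1058, 11.9 and 3.25 CPM (counts scaled to the TMM-normalised library size) in replicates 1 to 4. Replicates 1 and 2 were thus high and replicates 3 and 4 low, although all share 1 donor label. The sex of each library was not tested.

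Transcripts of nearly the whole machine were abundant. Of the 50 genes, 48 (96%) reached 1 TPM in every library, against 47.6% of all protein-coding genes. The median over the 50 genes was 204.5 ± 7.08 TPM (SD, n = 4). Over all protein-coding genes the median was 0.715 to 0.915 TPM, and over those above 1 TPM in every library it was 31.4 to 32.2 TPM. In these bulk libraries, fewer cells with a transcript and less of it per cell cannot be told apart. Together the 50 genes took 0.779 to 0.832% of all counts and 1.13 to 1.22% of all TPM. TPM divides each count by the length of the gene's exons. The files give the length of all exons of all isoforms merged, which for some of these genes is up to 3.36 times the length of the principal transcript. Levels of different genes are therefore given on the files' length. For groups of the 50 genes they are also given on the length of the principal transcript where that changes the highest or lowest gene. Levels of genes outside the symbol rule are on the files' length unless stated.

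**Figure D1:**
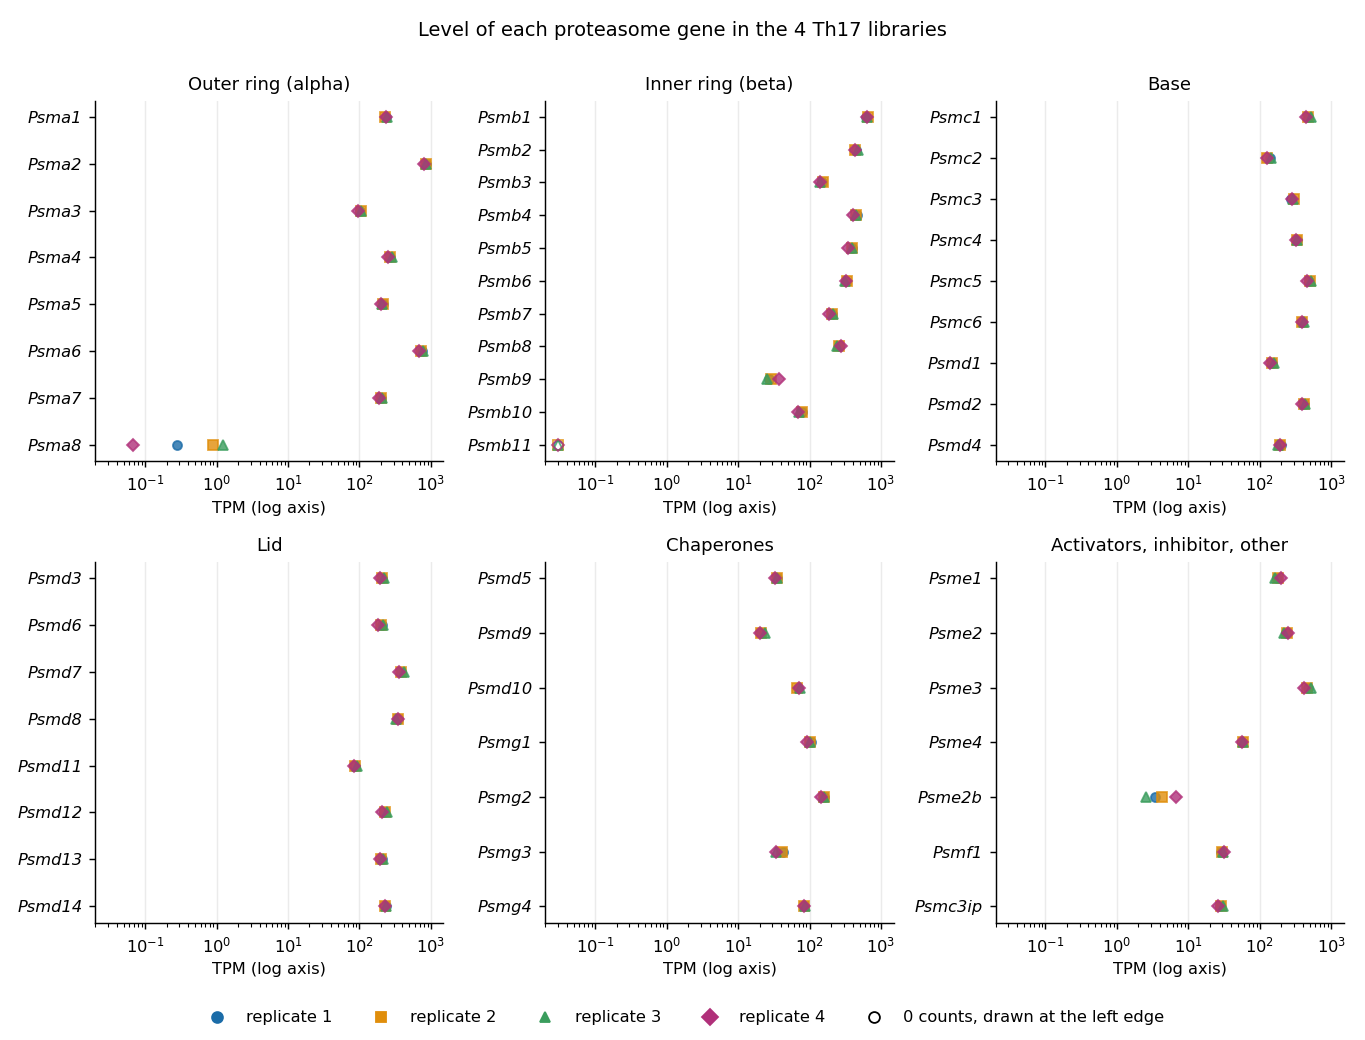
Each symbol is the level of 1 gene in 1 library, in TPM on a log axis, with genes grouped by role. The 4 libraries nearly coincide for most genes, while Psmb9, Psme2b and, most of all, Psma8 with its few counts spread further. Psma8 and Psmb11 lie far to the left of the other core genes.

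The 7 α subunits, which form the outer rings and the gate of the core, had a median of 235 ± 4.78 TPM. Their levels ran from 101 ± 5.06 TPM for Psma3 to 851 ± 26.0 TPM for Psma2, an 8.39-fold range. Psma6 was the next highest at 731 ± 47.9 TPM. On the principal transcript length the range was 6.24-fold, from Psma3 at 95.5 ± 4.73 TPM to Psma6 at 596 ± 38.9 TPM. Psma3 was the lowest of the 7 on each length tried. The 4 non-catalytic β subunits had a median of 443 ± 16.0 TPM, from 146 ± 6.56 TPM for Psmb3 to 635 ± 17.8 TPM for Psmb1. Psmb3 was also lowest on the principal transcript length, where Psmb4 was highest at 497 ± 21.7 TPM and Psmb1 was at 437 ± 12.3 TPM.

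The 2 tissue-restricted core subunits were the 2 genes below that level. Psma8 is the α subunit of spermatogenic cells and is the counterpart of Psma7. Psma8 had 5, 11, 6 and 1 counts in replicates 1 to 4, or 0.282, 0.897, 1.24 and 0.0674 TPM. Psma7 was at 198, 203, 205 and 187 TPM. Over the pooled counts, Psma7 was 425-fold above Psma8 per exonic base (95% interval 283 to 670, counting error only). The fold on the principal transcript length (914 against 3072 bases for Psma7, 1692 against 1693 for Psma8) was 1426 (950.4 to 2251). Psmb11 is the β5 subunit of the cortical thymic epithelium, and its gene lies close to Psmb5 on chromosome 14 (mm10 chr14:54625310-54629556 on the plus strand, with Psmb5 at chr14:54614120-54617995 on the minus strand). Psmb11 had 0 counts in every library, and 0 counts allow up to 3, or 0.0673 TPM in replicate 1 and 0.248 TPM in replicate 3. Psmb5 was at least 1567-fold higher per exonic base with 3 counts per library as the floor. Markers of the cell types these subunits are named for were low: of 5 germ cell markers and of 5 thymic epithelial markers, 0 and 2 (Ccl25 and Prss16) reached 1 TPM in every library, and Foxn1 had 0 counts.

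At the catalytic positions, transcripts of the immune subunits were present alongside those of the constitutive ones, at levels that differed by position. Psmb8 (β5, mm10 chr17:34197721-34201454) was at 255, 256, 240 and 274 TPM in replicates 1 to 4. Psmb9 (β1, chr17:34181988-34187764), like Psmb8 in the MHC region, was at 27.2, 29.1, 25.2 and 37.4 TPM. Psmb10 (β2, chr8:105935735-105938444) was at 78.3, 78.4, 72.02 and 68.2 TPM. The immune subunits thus spanned 8.63-fold among themselves, with Psmb8 highest and Psmb9 lowest in all 4 libraries. They spanned 5.36-fold on the principal transcript length, and there Psmb9 was above Psmb10 in replicate 4 (69.7 and 61.1 TPM). The constitutive subunits lay closer together. Psmb5 was at 387, 398, 388 and 347 TPM. Psmb6 (chr11:70525367-70527858) was at 318, 335, 317 and 326 TPM. Psmb7 (chr2:38588036-38644087) was at 206, 203, 210 and 186 TPM. In descending order of mean the 6 genes ran Psmb5, Psmb6, Psmb8, Psmb7, Psmb10 and Psmb9, and the ranges of no adjacent pair overlapped. On the principal transcript length the order was Psmb6, Psmb7, Psmb8, Psmb5, Psmb10 and Psmb9, and the last pair overlapped (61.1 to 70.1 TPM for Psmb10 and 47.0 to 69.7 TPM for Psmb9).

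Each immune subunit was then compared with its constitutive counterpart inside each library, on the log2(TPM + 1) scale. The β1 position showed the widest gap: Psmb9 minus Psmb6 was -3.42 ± 0.22 (SD, n = 4), negative in 4 of 4 libraries, with Psmb6 11.1-fold higher. At β2, Psmb10 minus Psmb7 was -1.43 ± 0.08, again negative in 4 of 4 libraries. Length changed its size, to -2.60 ± 0.08 on the principal transcript, but not its direction. At β5, Psmb8 minus Psmb5 was -0.57 ± 0.155, with -0.60, -0.64, -0.69 and -0.34 in replicates 1 to 4.

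The direction at β5 rested on the length used. The exons of Psmb8 measure 2736 bases in the files and 1628 in the principal transcript, while Psmb5 keeps 871. On the principal transcript length the difference was 0.18 ± 0.15, above 0 in 4 of 4 libraries, and in CPM without a length it was 1.08 ± 0.15. Psmb5 may also be set low by the counting, by an amount that was not measured. Of its stretches of 75 bases, 40% also occur in Gm3375 or Mir686, and reads that fit several places were not counted. With those stretches taken off the principal length, the difference was -0.55 ± 0.155. The data therefore give no order for Psmb8 and Psmb5. None of the 75-base stretches of Psmb6, Psmb7, Psmb8, Psmb9 or Psmb10 were shared with another gene.

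The exact sign-flip permutation test (both tails) gave p = 0.125 for each of the 7 pairs compared in this way (the 3 catalytic pairs, Psme1 and Psme2 with Psme3, Psma8 with Psma7 and Psmb11 with Psmb5), adjusted p = 0.125. This is the smallest value 4 libraries allow, so the test cannot pass a threshold of 0.05. The differences are therefore described by their size, with their SD between libraries. This SD leaves out error from the length used and from shared stretches, which can exceed it, as for Psmb8 minus Psmb5 above. The mean of the 3 immune subunits minus the mean of the 3 constitutive ones was -1.81 ± 0.13 on the log2(TPM + 1) scale, between -1.94 and -1.62 in each library. It was -1.89 ± 0.13 on the principal transcript length and -1.27 ± 0.13 in CPM.

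Expressed as a share of the transcripts for each position, Psmb9 made up 8.37 ± 1.30% of β1, Psmb10 26.9 ± 1.04% of β2 and Psmb8 40.3 ± 2.61% of β5. Replicate 4 had the highest share at β1 (10.3%, the others 7.37 to 7.98%) and at β5 (44.1%, the others 38.2 to 39.7%). At β2 replicate 4 was within the others, at 26.8% against 25.5 to 27.9%. On the principal transcript length the shares were 9.53 ± 1.45%, 13.99 ± 0.64% and 53.1 ± 2.67%, and the β5 share was 40.5 ± 2.61% with shared stretches taken off. The order of the 3 positions was the same on each of these lengths.

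**Figure D2:**
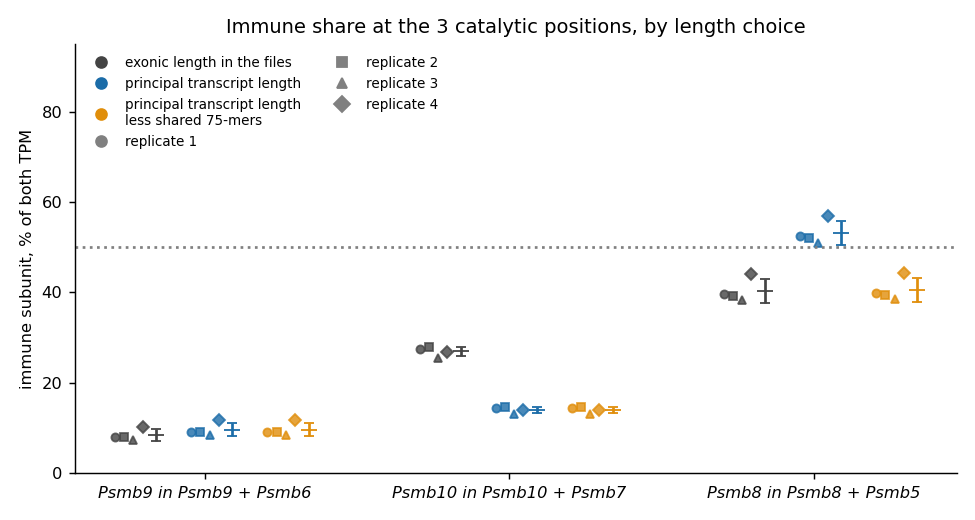
The immune subunit's percentage of the immune plus constitutive TPM at each catalytic position, with 1 symbol per library and mean and SD bars (n = 4), for 3 choices of gene length. The dotted line marks equal levels: only β5 crosses it with the length choice, while β1 stays lowest, and replicate 4 is highest at β1 and β5 under each choice.

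With the immune and constitutive genes of a position added together, the 14 positions of the core had a median of 315 TPM. They ran from Psma3 to Psma2, and β5 (Psmb8 plus Psmb5) was at 637 ± 15.0 TPM, β1 at 354 ± 11.7 TPM and β2 at 275.5 ± 14.4 TPM. Transcript levels of subunits that the assembled core holds in equal number thus differed by 8.39-fold between the extremes on the files' length, by 6.24-fold on the principal transcript length and by 6.04-fold with shared stretches taken off. Psma3, Psma5 and Psmb3 may be set low by the counting, since 21.3%, 39.8% and 33.1% of their 75-base stretches occur in other annotated genes. The counts lost were not measured. Protein levels were not measured.

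**Figure D3:**
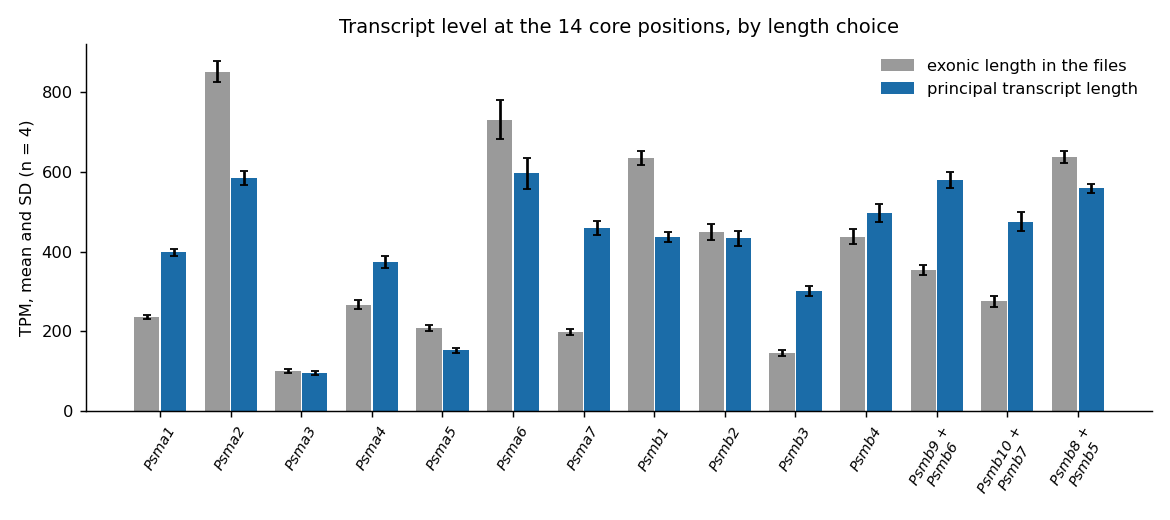
Bars give the mean level in TPM and its SD (n = 4) for the 14 positions of the core, with the immune and constitutive genes added at the 3 catalytic positions, on the files' exonic length and on the principal transcript length. Psma3 is lowest on both. Psma1, Psma4, Psma7, Psmb3, Psmb4 and the β1 and β2 positions are higher on the principal transcript length.

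Sequence before the start of the catalytic and activator genes is shown because these genes are textbook targets of different inputs: Nfe2l1, which drives the standard subunits through antioxidant response elements, and interferon-activated factors. RefSeq (GRCm38.p6, equal to mm10) held a promoter window, from 250 bases before to 50 after the start, for 42 of the 50 genes. The 8 without one, which were not searched, were Psma8, Psmb1, Psmb2, Psmb7, Psmc3, Psmd3, Psmd7 and Psmg2. The 4 motifs given below were searched on both strands. Capitals mark a match, each line reads 5′ to 3′ along the gene, and bases in annotated exons were left out except around the short Psmb8 and Psme1 sites. Psmb5 is at chr14:54618023-54618245 (minus strand), Psmb6 at chr11:70525107-70525356 (plus), Psmb10 at chr8:105938445-105938642 (minus), Psme2 at chr14:55591114-55591351 (minus), Psmb8 at chr17:34198088-34198116 (plus) and Psme1 at chr14:55578493-55578522 (plus).
Psmb5: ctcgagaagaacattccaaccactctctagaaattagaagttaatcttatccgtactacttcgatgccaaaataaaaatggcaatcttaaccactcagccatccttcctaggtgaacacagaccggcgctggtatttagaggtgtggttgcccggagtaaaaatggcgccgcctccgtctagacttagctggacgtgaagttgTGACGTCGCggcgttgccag
Psmb6: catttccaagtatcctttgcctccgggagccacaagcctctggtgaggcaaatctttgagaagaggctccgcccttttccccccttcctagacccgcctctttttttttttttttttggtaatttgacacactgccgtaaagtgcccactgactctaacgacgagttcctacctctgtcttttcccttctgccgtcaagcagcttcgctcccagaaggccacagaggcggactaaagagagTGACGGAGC
Psmb10: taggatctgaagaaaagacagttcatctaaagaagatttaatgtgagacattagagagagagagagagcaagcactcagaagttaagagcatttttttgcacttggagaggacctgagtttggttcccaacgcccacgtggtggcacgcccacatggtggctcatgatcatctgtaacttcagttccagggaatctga
Psme2: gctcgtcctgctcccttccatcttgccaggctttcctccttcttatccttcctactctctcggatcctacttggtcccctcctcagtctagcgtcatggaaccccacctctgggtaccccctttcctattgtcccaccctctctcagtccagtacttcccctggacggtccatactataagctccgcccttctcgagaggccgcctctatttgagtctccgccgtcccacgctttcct
Psmb8: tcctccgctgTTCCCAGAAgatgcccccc
Psme1: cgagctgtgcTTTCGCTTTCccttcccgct
The antioxidant response element core TGACNNNGC was found in 6 of the 42 windows (14.3%), against 14.8% of 17491 protein-coding genes. In Psmb5 it reads TGACGTCGC and starts at -47 relative to the RefSeq start, and in Psmb6 it reads TGACGGAGC and starts at -9. The other 4 genes were Psmc6, Psmd12, Psmd9 and Psme4. The interferon-stimulated response element core GAAANNGAAA was found in 5 windows (11.9%), against 3.94% of all: Psmb3, Psmd4, Psmd9, Psme1 and Psmg4. Psme1 carries it on the opposite strand, as TTTCGCTTTC, starting 9 bases after the start. The STAT site TTCNNNGAA, which reads the same on both strands, was found in Psmb8, Psmd2 and Psmg1 (7.14% against 8.92%), and in Psmb8 it reads TTCCCAGAA and starts at -97. The CCAAT box was found in 15 windows (35.7% against 42.3%) and is not capitalised above. It was the only motif found in the window of Psmb9, which is not printed. That window is set on the RefSeq start at chr17:34187330, while the exons in the files reach 34187764. Sequence before the outermost exon of Psmb9 was therefore not searched. The RefSeq starts of Psmb8, Psmd9 and Psme1, among others, also lie inside the span of the files' exons. No matches of different motifs overlapped. Psmb10 and Psme2 hold none of the 4 motifs in their windows. A match describes these letters only, and binding was not measured.

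Most transcripts of the regulatory particle lay in the range of those of the core. The 6 ATPases of its base, which unfold the substrate, had a median of 361 ± 7.67 TPM, from 132 ± 8.67 TPM for Psmc2 to 493 ± 29.2 TPM for Psmc5. On the principal transcript length the 6 ATPases lay within 1.4-fold of each other. The base scaffold Psmd2 was at 414 ± 20.95 TPM, its partner Psmd1 at 149 ± 8.28 TPM and the ubiquitin receptor Psmd4 at 191 ± 6.84 TPM. The 8 lid subunits had a median of 216 ± 9.73 TPM, from 87.5 ± 4.24 TPM for Psmd11 to 385 ± 24.5 TPM for Psmd7. Psmd8 was highest of the lid on the principal transcript length, at 468 ± 11.95 TPM. Psmd14, the lid enzyme that removes ubiquitin chains, was at 235, 229, 233 and 224 TPM, and its partner Psmd7 at 382, 378, 419 and 361 TPM.

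Assembly factors had lower medians than the subunits they assemble. The 3 base chaperones had a median of 34.4 ± 0.97 TPM: Psmd10 (gankyrin) at 70.1 ± 3.14, Psmd5 at 34.4 ± 0.97 and Psmd9 at 21.5 ± 1.54 TPM. Psmd5 was the lowest of them on the principal transcript length, at 38.9 ± 1.08 TPM, and Psmd9 was at 41.3 ± 2.95 TPM. The 4 core chaperones had a median of 92.4 ± 3.53 TPM, from 37.7 ± 4.15 TPM for Psmg3 to 156 ± 8.78 TPM for Psmg2. Psmg4 was the lowest on the principal transcript length, at 58.3 ± 1.05 TPM. Psmg3 shares 20.3% of its 75-base stretches with the overlapping gene Gm26938, which may lower its count. The core maturation factor Pomp, outside the symbol rule, was at 151 ± 6.32 TPM, and at 344 TPM on the principal transcript length.

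Among the activators, the nuclear PA28γ gene Psme3 was highest, at 470.5, 452, 527.5 and 412 TPM. The interferon-inducible PA28 subunits were lower: Psme1 at 177, 182, 162 and 199 TPM and Psme2 at 233, 244, 216 and 247 TPM. No library of Psme1 or Psme2 reached the lowest library of Psme3 on this length. Psme1 minus Psme3 was -1.36 ± 0.27 on the log2(TPM + 1) scale and -0.52 ± 0.27 on the principal transcript length. Psme2 minus Psme3 was -0.98 ± 0.23, then -0.25 ± 0.23 on the principal transcript length, and 0.79 ± 0.23 with shared stretches taken off, since 51.7% of the 75-base stretches of Psme2 occur in its intronless copy Psme2b. The order of Psme2 and Psme3 therefore rested on how this sharing was treated. Psme2b itself had 30, 26, 6 and 50 counts, 60.2% of its stretches occur in Psme2, and its level is uncertain. The activator Psme4 (PA200) was at 57.8 ± 1.61 TPM and the inhibitor Psmf1 (PI31) at 30.0 ± 0.87 TPM. Psmc3ip meets the symbol rule but encodes a meiotic recombination factor, not a proteasome subunit, and was at 28.3 ± 1.55 TPM.

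The surrounding pathway was present throughout. All 15 partner genes of the proteasome, such as the ubiquitin receptor Adrm1 and the deubiquitinases Usp14 and Uchl5, reached 1 TPM in every library, with a median of 114 ± 6.07 TPM. All 4 genes of the control circuit did so too: Nfe2l1 was at 132 ± 6.38 TPM, its relative Nfe2l2 at 40.7 ± 4.11, its activating protease Ddi2 at 25.9 ± 0.91 and its deglycosylase Ngly1 at 19.97 ± 1.95 TPM. On the principal transcript length Ddi2 was the lowest of these 4, at 17.8 TPM. The 6 genes that supply and activate ubiquitin had a median of 301 ± 6.21 TPM, led by Rps27a (821 ± 48.8 TPM) and the activating enzyme Uba1 (802 ± 32.2 TPM). All 9 class I processing genes were above 1 TPM (median 100.2 ± 15.6 TPM), as were 11 of 14 interferon receptor, signalling and response genes (median 23.4 ± 5.84 TPM).

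The spread between libraries was tested for all 12156 genes with enough counts, by edgeR's quasi-dispersion against its trend. Of the 48 proteasome genes tested, 0 had an adjusted p under 0.05 (percent of all genes called, 0.00823%), and 0 had an unadjusted p under 0.05, against 4.9% of all genes. DESeq2 marked 0 of them as dispersion outliers. The companion lists were chosen with earlier results of these data known, so their counts are descriptive only. In them 0 genes had an adjusted p under 0.05 in edgeR. At an unadjusted p under 0.05 there were 7 of 13 interferon genes (Ifit1, Ifngr1, Irf9, Isg15, Oas3, Stat2 and Usp18) and 2 of 9 class I processing genes (Tap1 and Tapbp), and none in the other lists. Oas3 had the smallest adjusted p of these, 0.2891. Among the 48 proteasome genes Psmb9 came nearest, with an unadjusted p of 0.05253 and an adjusted p of 0.9905 in edgeR. Psme3 followed, with an unadjusted p of 0.0942 and an adjusted p of 0.9905 in edgeR. The median coefficient of variation (CV) of CPM was 5.39% over the 48 genes and 7.91% over all genes tested. Within the middle range of the proteasome genes' own level (82.0 to 215 CPM) the values were 5.18% and, over 2216 genes, 5.17%. At this level the gap to all genes was not seen. Psmd8 (lid) was steadiest at 1.78%, while Psmb9 stood at 17.3% and Psme2b, with 112 counts in all, at 42.8%.

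Although no gene passed the test, many of the 48 genes ordered the libraries in the same way. The highest library was replicate 1 for 4 genes, replicate 2 for 8, replicate 3 for 29 and replicate 4 for 7. The same shares over all genes tested were 14.9%, 18%, 33.9% and 33.2%. Replicate 4 was the lowest library for 32 genes (66.7%), against 32.9% of all. For 25 of the 48 (52.1%) the peak was in replicate 3 and the minimum in replicate 4, against 20.6% of all genes tested. With CPM scaled by the library total alone it was 20 of the 48 (41.7%), against 16.6% of all genes. Replicate 4 was below replicate 3 for 37 of the 48, against 49.6% of all genes. The median log2 ratio of replicate 4 to replicate 3 was -0.13 over the 48 genes and 0.00 over all genes. Among the 31 standard core and regulatory subunits, 19 had the order of replicate 3 highest and replicate 4 lowest, or 15 by the library total. By group this was 5 of 7 α subunits, 1 of 4 non-catalytic and 1 of 3 constitutive catalytic β subunits, 3 of 6 ATPases, 2 of 3 other base subunits and 7 of 8 lid subunits. By the library total the α, ATPase and lid counts were 3, 2 and 6. Psmb6 did not share the order, with a ratio of replicate 4 to replicate 3 of 1.01 (95% interval 0.955 to 1.07, counting error only). Psmc1, an ATPase, had 220, 217, 247 and 203.5 CPM in replicates 1 to 4. Psmb7 had 214, 212, 222 and 192.5 CPM. Of the 15 partner genes, 11 had the same order.

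The opposite order, with the peak in replicate 4 and the minimum in replicate 3, was seen in 6 genes (12.5%, against 20.5% of all genes): Psmb8, Psmb9, Psme1, Psme2, Psme2b and Psmd8. This share is below that of all genes, so the count itself singles out nothing about the proteasome genes. The same 6 genes were found with the other 2 scalings tried. Psmb9 had 30.2, 32.5, 28.5 and 41.4 CPM, so that replicate 4 was 1.45-fold above replicate 3 (95% interval 1.27 to 1.67, counting error only). Psme1 had 119, 123, 111 and 133 CPM, a ratio of 1.2 (1.12 to 1.29). Psmb8 had 212, 214, 203 and 227 CPM, a ratio of 1.12 (1.06 to 1.18). Psme2 had 125.1, 131.4, 117.7 and 132 CPM, also with a ratio of 1.12 (1.05 to 1.2). Psmd8 had 321.3, 322.4, 310.8 and 322.7 CPM. For Psme2 and Psmd8 replicates 2 and 4 were nearly equal, so the peak in replicate 4 was close to a tie. The third immune subunit, Psmb10, did not share this order: its CPM was 40.6, 40.9, 37.9 and 35.2, with a ratio of 0.929 (0.822 to 1.05). Psme3 had 421.5, 408, 480 and 368 CPM and a ratio of 0.765 (0.739 to 0.793).

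Both orders were seen in the companion lists, which were chosen with earlier results of these data known. Of 9 class I processing genes, 4 had their peak in replicate 4 and their minimum in replicate 3: Tap1 and Tapbp, both with a ratio of 1.41, Tap2 at 1.18, and Tapbpl. Of 13 interferon genes tested, 9 had this order, among them Stat2 at 21.3, 25.3, 19 and 35.7 TPM. B cell, dendritic and NK cell markers stayed at the low levels given above in all 4 libraries. Cd68 was at 5.38, 8.02, 4.19 and 6.72 TPM, lowest in replicate 3 but highest in replicate 2, while the macrophage markers Adgre1, Lyz2, Csf1r and Mertk were near 0 throughout (the highest, Lyz2, 0.26 TPM in replicate 4). Of the 7 Th17 markers, 5 were higher in CPM in replicate 4 than in replicate 3. Cd3e and Rora had their peak in replicate 4 and their minimum in replicate 3. The cytokines Il17a and Il17f had the opposite order with TMM scaling, but their replicates 1 and 3 were close (2974 and 3006 CPM for Il17a, 7609 and 7698 for Il17f). By the library total 3 of the 7 (Cd3e, Cd4 and Rora) had the first order and 0 had the opposite one. Replicate 3 is the library with the fewest counts, and replicates 3 and 4 are alike in their low Xist level. The part of depth in these orders was not tested, and with 1 library each, replicate and any difference in handling cannot be told apart.

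**Figure D4:**
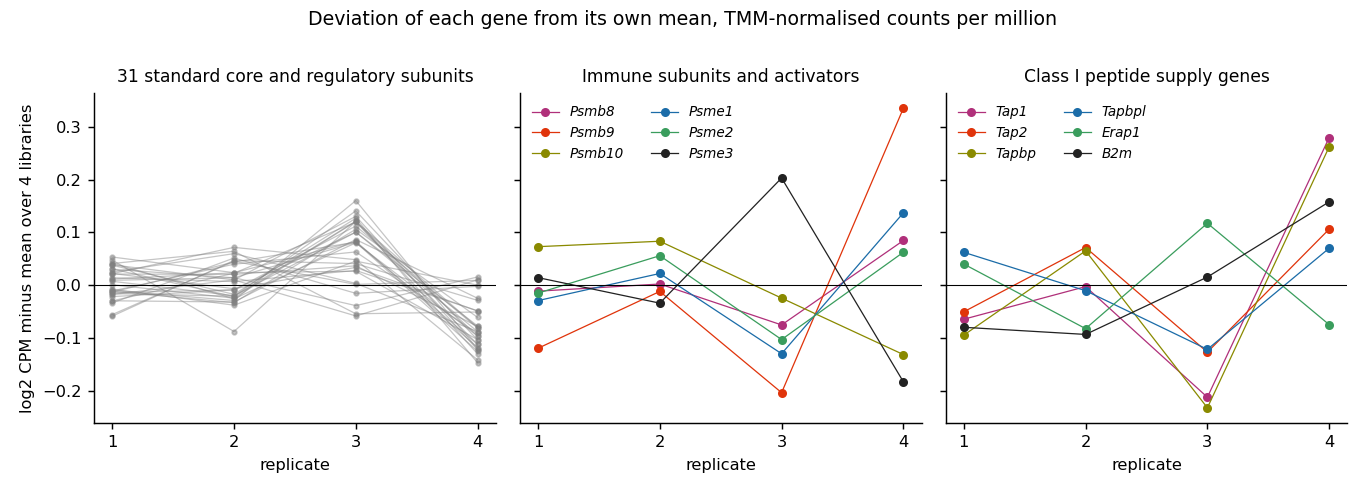
Lines give the log2 CPM of each gene minus its own mean over the 4 libraries, for the 31 standard subunits, for the immune subunits and activators, and for 6 class I genes. With this TMM scaling 19 of the 31 standard subunits peak in replicate 3 and are lowest in replicate 4 (15 by the library total). Psmb8, Psmb9, Psme1 and Psme2 do the opposite along with Tap1, Tap2, Tapbp and Tapbpl. Psmb10, Psme3, Erap1 and B2m do not have this opposite order, and neither do the class I genes Calr, Pdia3 and Nlrc5, which are not drawn.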

How the data were processed

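The 4 Th17 libraries were used as deposited, as raw counts (whole numbers) of fragments for each gene. The authors made these counts, per the file headers, with featureCounts 1.4.6-p4 on GENCODE mouse release 13 exons, with the reverse-stranded setting (2). The labels give mm10. Multi-mapping reads and reads over several genes were not counted. The aligner version was not given in the sources used here. The assay is labelled total RNA, while its linked protocol is named for poly(A)+ RNA.

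Symbols and principal transcripts came from GENCODE release 21, in which 50376 of the 50600 identifiers were found. TPM were computed from the counts and the files' exonic lengths. Genes were compared inside each library as log2(TPM + 1) with an exact sign-flip permutation test and Benjamini-Hochberg adjustment over 7 pairs. Spread was tested with edgeR 4.0.16 (TMM, filterByExpr, an intercept alone, quasi-dispersion over its trend, adjusted over all genes), tested on simulated data, and with DESeq2 1.42.0 as an alternative. A principal transcript longer than the files' exons (6 genes) was cut to their length. Shared stretches are 75-base sequences of the principal transcript found in another annotated gene. Other alternatives were a pseudocount of 0.1, CPM, lengths shortened by 200 bases, other scalings and filters, and each library left out. Any gene found by the symbol rule, or in a companion list, could be named. The members and lists were chosen with earlier results of these data known. Psmb11 and Psma8 did not pass the count filter. Intervals (95%) and floors (3 counts) cover counting error only. Depth is given with the results.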

Additional observations from a re-analysis of the deposited data

Results flagged for a closer look

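Among 60 values examined over the 4 libraries, 2 had 1 library far from the other 3. Chance gives about 1 in 20. Psma2, an α subunit, was at 812 TPM in replicate 4, and at 861 to 867 TPM in the others. Psmg2, a core chaperone, was at 142.6 TPM in replicate 4, and at 159 to 161 TPM in the others. Replicate 4 was the lowest library for 32 of the 48 tested genes in CPM, against 32.9% of all genes tested.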

How the results depend on the processing

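No paired analysis was possible because there is 1 group. Of 133 values recomputed under an alternative, 3 reversed in direction and 20 moved (by more than 1 SD between libraries for a mean, share or median level, by over 1.5 times for a count, and by any of the shifts given below for the CV). The other 110 include every other difference between a pair, for which direction alone was judged: their sizes changed, as from -1.43 to -2.60 for Psmb10 minus Psmb7, from -1.36 to -0.52 for Psme1 minus Psme3 and from -0.98 to -0.25 for Psme2 minus Psme3 on the principal transcript length. The 2 alternatives with the principal transcript length were chosen after seeing the data. Psmb8 minus Psmb5 reversed to 1.08 in CPM and to 0.18 on the principal transcript length. Psme2 minus Psme3 reversed to 0.79 with shared stretches taken off. The immune minus constitutive mean was -2.11 as a median over the 3 genes, -1.27 in CPM and -2.13 with shared stretches taken off. In CPM the immune share was 15.1% at β1, 15.5% at β2 and 67.9% at β5. With lengths shortened by 200 bases it was 28.2% at β2 and 35.9% at β5, and the median over the 50 genes was 192.7 TPM. On the principal transcript length the share was 13.99% at β2 (13.99% too with shared stretches taken off) and 53.1% at β5, and the median was 269 TPM. These follow from the lengths alone, since the counts are the same. The median CV was 5.46% with RLE scaling, 4.68% with the library total and 5.35% for genes with a mean count of at least 50. It ranged from 4.04% to 6.52% when 1 library was left out, lowest without replicate 3 or replicate 4. With edgeR and no filter, Psmb9 (adjusted p = 0.67) and Psme3 (adjusted p = 0.8902) passed an unadjusted 0.05, and without replicate 3 Psmb9 did (edgeR adjusted p = 0.9892). No proteasome gene passed the adjusted threshold in any of these fits. All genes called numbered 1 with all 4 libraries, 1 without replicate 1, 2 or 3 and 20 without replicate 4. They numbered 5 with a mean count of at least 50, 126 without a filter and 111 by DESeq2. Leaving out a library moved Psmb9 minus Psmb6 between -3.53 and -3.36 and Psmb8 minus Psmb5 between -0.64 and -0.53. Low depth limits Psma8, Psmb11 and Psme2b.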
